A study of Mus musculus with 9 samples.

Results

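Bipolar cell transcripts were followed in libraries of purified retinal ganglion cells (RGCs). The 8 genes were taken by symbol from the 23997 symbols that each library lists: Cabp5, Scgn, Vsx1, Grm6, Trpm1, Pcp2, Prkca and Otx2. They were chosen by name, as known genes of bipolar cells, with earlier results of these data known. The 9 libraries fell into 3 groups of 3 (Control, Mild IOP and Moderate IOP). All mice were C57BL/6J, a wild-type strain, injected at 6 weeks of age and with a labelled age of 8 weeks. Control eyes received saline and the eyes of both IOP groups received microbeads, which raise intraocular pressure (IOP), and pressure was followed for 2 weeks. Microbead eyes were then divided into Mild and Moderate IOP by the average pressure increase they had reached. RGCs were isolated by immunopanning, in which plates coated with antibodies or lectin first remove microglia, endothelial cells and amacrine cells and an antibody to Thy1.2 then captures RGCs. RNA was pooled within each group, from fewer retinas in Moderate IOP than in the others, and then split into 3 technical replicates. The libraries thus represent 3 pools, and every error and p-value below covers the spread between libraries of a pool and not the spread between animals.

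Bipolar cells are the interneurons that carry signals from photoreceptors to amacrine cells and RGCs. ON bipolar cells sense photoreceptor glutamate with the metabotropic receptor mGluR6 (Grm6), which acts through a G protein to close the cation channel Trpm1, so that a fall in glutamate in the light opens the channel. Rod bipolar cells are ON cells that serve rods and are classically recognised by protein kinase C alpha (Prkca), whereas cone bipolar cells comprise many ON and OFF types. None of the panning steps named above is directed at bipolar cells.

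Sequences around the start sites of Cabp5, Trpm1 and Pcp2 are shown as examples that carry matches to the DNA-binding cores of homeodomain proteins, the class to which the members Otx2 and Vsx1 belong. They are from RefSeq (GRCm38.p6), cover the bases just before and after a start, and read 5′ to 3′ on the strand of the gene. Capitals mark TAATCC (the core recognised by Otx2 and its relative Crx) or its reverse complement GGATTA in Cabp5 and Trpm1, and TAATTA (a paired-like homeodomain core) in Pcp2. The windows are chr7:13397905-13398204 on the + strand for Cabp5, chr7:64153585-64153884 on the + strand for Trpm1 and chr8:3625233-3625532 on the − strand for Pcp2.
Cabp5: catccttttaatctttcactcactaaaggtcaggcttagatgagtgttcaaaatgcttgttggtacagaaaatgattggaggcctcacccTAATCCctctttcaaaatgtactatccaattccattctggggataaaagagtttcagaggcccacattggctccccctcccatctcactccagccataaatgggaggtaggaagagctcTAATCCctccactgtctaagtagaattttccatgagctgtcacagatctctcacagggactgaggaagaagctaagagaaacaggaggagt
Trpm1: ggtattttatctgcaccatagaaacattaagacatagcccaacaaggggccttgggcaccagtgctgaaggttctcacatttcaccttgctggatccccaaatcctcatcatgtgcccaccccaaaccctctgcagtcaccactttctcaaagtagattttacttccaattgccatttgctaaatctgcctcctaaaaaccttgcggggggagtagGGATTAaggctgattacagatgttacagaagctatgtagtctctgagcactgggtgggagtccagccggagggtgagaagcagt
Pcp2: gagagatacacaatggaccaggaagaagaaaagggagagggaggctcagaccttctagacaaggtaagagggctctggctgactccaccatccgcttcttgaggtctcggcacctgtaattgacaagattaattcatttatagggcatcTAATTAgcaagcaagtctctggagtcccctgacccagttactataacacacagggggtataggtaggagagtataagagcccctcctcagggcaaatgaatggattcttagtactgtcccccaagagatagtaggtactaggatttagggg
All 8 members matched the RefSeq table, with 15 promoters in total. TAATCC on either strand was present in 3 of these 15 promoters (1 each of Cabp5, Trpm1 and Otx2), and in 7.06% of all 32851 promoters of the same length. TAATTA, which is its own reverse complement, was present in 3 of 15 (1 of Pcp2 and 2 of Otx2) and in 5.29% of all promoters. A match is a description of the letters and not evidence of binding, and no protein binding was measured here.

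Levels are FPKM (fragments per kilobase of transcript, relative to all mapped fragments), divided by a scaling factor per library that lay between 0.983 and 1.058. This unit allows levels to be set side by side between genes. Depth, derived from the confidence intervals of the FPKM values, lay between 5050000 and 8910000 fragments per library. Averaged over the 9 libraries, Pcp2 was the most abundant member at 48.6 FPKM, above 84.4% of the 13043 tested genes, and it held 63.1% of the summed level of the 8 members in Control, 47.3% in Mild and 64.1% in Moderate IOP. Its range did not overlap that of any other member. Cabp5 followed at 11.3 FPKM and Scgn at 10.1 FPKM, near the middle of all tested genes (above 56.5% and 53.9% of them), and Cabp5 exceeded Scgn in 6 of 9 libraries. In Moderate IOP the order of their means was the reverse, with 13.3 FPKM for Scgn and 11.6 FPKM for Cabp5. Prkca averaged 5.09 FPKM and lay below Scgn in 9 of 9 libraries. Otx2 averaged 3.36 FPKM and lay below Prkca in 8 of 9 libraries. The receptor and the channel of the ON pathway were the lowest detected members, with 1.95 FPKM for Grm6 and 1.90 FPKM for Trpm1. Grm6 exceeded Trpm1 in 5 of 9 libraries, so this pair could not be ordered. Vsx1 was listed at 0 in all libraries.

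**Figure D1:**
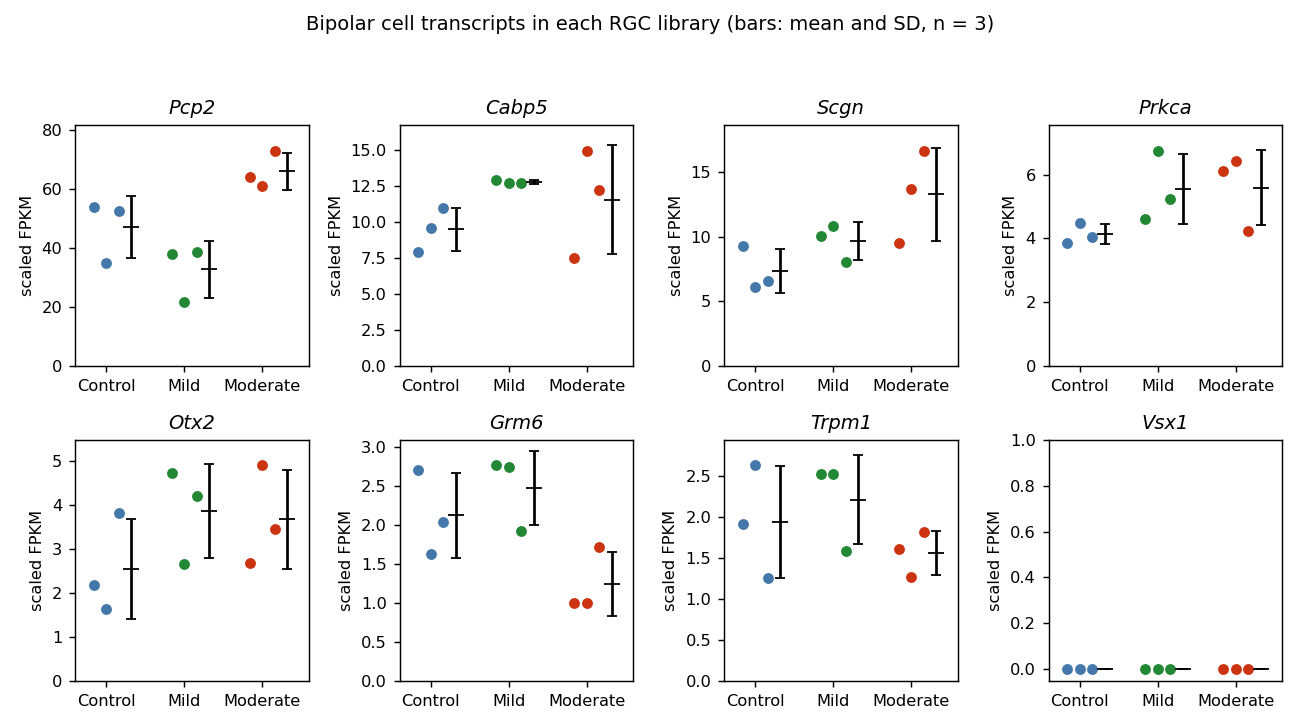
Scaled FPKM (y axis, linear, a separate scale in each panel) of the 8 members in each library of Control, Mild and Moderate IOP, with the mean and SD of the 3 technical replicates beside the points. Pcp2 is highest in the Moderate libraries, between 60.9 and 72.9 FPKM, and Vsx1 lies at 0 in all 9 libraries. Of the other members, only Trpm1 and Otx2 overlap between all groups.

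Among the bipolar transcripts, Pcp2 alone passed the test in any of the 3 comparisons, and it did so between the IOP groups, where it was higher in Moderate IOP. Of the 8 members, 7 passed the filter on low values and were tested with limma, and members were called at a false discovery rate (FDR) below 0.1. In Mild IOP against Control 0 of 7 tested members were called, where 0.399% of all tested genes were, and 1 of 7 (Pcp2) had an unadjusted p below 0.05, against 10.2% of all tested genes. In Moderate IOP against Control 0 of 7 were called, against 1.84% of all tested genes, and 1 of 7 (Scgn) had an unadjusted p below 0.05, against 15.3%. In Moderate IOP against Mild IOP 1 of 7 was called (Pcp2), against 10.2% of all tested genes and 7.03% called in that direction. An unadjusted p below 0.05 was reached there by 2 of 7 (Pcp2 and Grm6) and by 21.8% of all tested genes. With so few members, 1 call beside a background of 10.2% is not a result about the members as a group.

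The direction of the tested members differed from gene to gene. Their log2 fold-change was above 0 for 6 of 7 in Mild IOP against Control, for 5 of 7 in Moderate IOP against Control and for 3 of 7 in Moderate IOP against Mild IOP, where 50.9%, 50.5% and 48.4% of all tested genes were above 0. For the 7 together, the median was 0.34, 0.35 and −0.06 in the same order, beside 0.01, 0.00 and −0.02 over all tested genes. The first pair of comparisons share the Control libraries, so their values are not independent. Groups did not overlap for Cabp5 and Prkca in Mild IOP against Control, both higher in Mild IOP, where 7.94% of all tested genes were higher without overlap. In Moderate IOP against Control this held for Scgn and Pcp2, both higher in Moderate IOP, against 9.95% of all tested genes. Between the IOP groups Pcp2 was higher and Grm6 lower in Moderate IOP without overlap, which 14.5% and 13% of all tested genes also were.

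**Figure D2:**
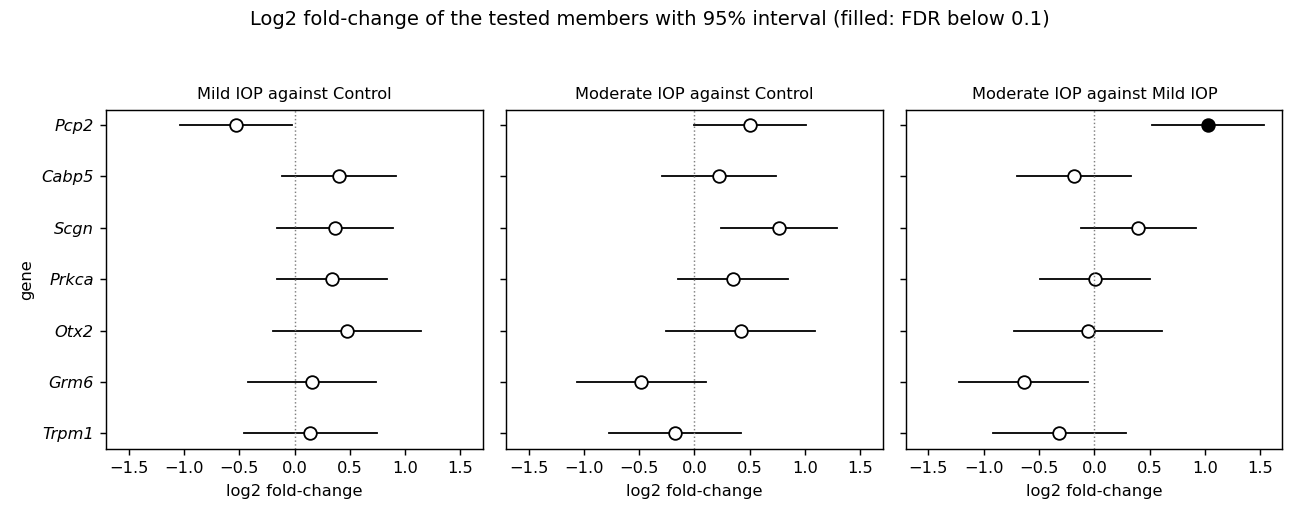
Log2 fold-change (x axis, on the log2(scaled FPKM + 1) scale) of the 7 tested members (y axis) in the 3 comparisons, with 95% intervals from limma and filled points at an FDR below 0.1. Only the point of Pcp2 in Moderate against Mild IOP is filled, at 1.03, and 4 intervals of the 21 drawn leave out 0.

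The ON-pathway receptor Grm6 (chr11:50850685-50866208, mm10, + strand, 11 exons in its longest transcript) encodes mGluR6. Its level was 2.71, 1.63 and 2.03 FPKM in the Control libraries, 2.76, 2.74 and 1.93 in Mild IOP and 1.00, 0.999 and 1.72 in Moderate IOP. The Moderate values lay below all Mild values and overlapped the Control values. Group means were 2.12 ± 0.546 FPKM (SD, n = 3 technical replicates, as for all group means here) in Control, 2.47 ± 0.475 in Mild and 1.24 ± 0.414 in Moderate IOP. The log2 fold-change of Moderate against Mild IOP was −0.64 (95% interval −1.22 to −0.06), which did not pass the test (limma FDR = 0.188). It was −0.48 (−1.06 to 0.10, FDR = 0.419) in Moderate IOP against Control and 0.16 (−0.42 to 0.74, FDR = 0.901) in Mild IOP against Control. The values rest on few fragments, between 22.0 and 88.1 per library. Gm12660, an antisense gene, shares 599 nt of exon with Grm6, and reads from both strands cannot be told apart because the library kit does not mark strand.

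Trpm1 (chr7:64153835-64269759, + strand, 27 exons) encodes the cation channel that mGluR6 signalling closes. The Control libraries held 1.92, 2.63 and 1.26 FPKM, the Mild IOP libraries 2.52, 2.52 and 1.59 and the Moderate IOP libraries 1.60, 1.27 and 1.81. All 3 groups overlapped, and the Control libraries alone spanned the whole range of the other groups. The log2 fold-change was 0.14 (−0.46 to 0.74, limma FDR = 0.915) in Mild IOP against Control, −0.18 (−0.78 to 0.42, FDR = 0.802) in Moderate IOP against Control and −0.32 (−0.92 to 0.28, FDR = 0.543) between the IOP groups. At 27.6 to 93.1 fragments per library, changes within these intervals were not resolved. The log2(scaled FPKM + 1) scale understates fold-changes of such low genes, so larger changes in level may also have been missed. Trpm1 is also expressed by melanocytes and pigment epithelium. The summed level of 8 pigment cell markers was between 0.735 and 4.08 FPKM in all libraries. Rpe65, the isomerase of the visual cycle, was at 0 in each. Of the 8, 2 passed the filter on low values, Best1 at 1.07 FPKM and Tyr at 0.586 FPKM on average. The part of pigment cells in the Trpm1 level was not tested.

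Prkca (chr11:107933387-108343888, − strand, 17 exons) encodes the kinase used to identify rod bipolar cells, and other neurons express it as well. It measured 3.87, 4.48 and 4.04 FPKM in Control, 4.62, 6.76 and 5.25 in Mild and 6.12, 6.43 and 4.23 in Moderate IOP. All Mild values were above all Control values, while 1 Moderate value lay within the Control range. Its long transcripts gave the most fragments of any member, 177 to 490 per library, and the Control libraries differed least (4.13 ± 0.316 FPKM). Against Control, Mild IOP gave a log2 fold-change of 0.34 (−0.16 to 0.84, limma FDR = 0.675) and Moderate IOP one of 0.35 (−0.15 to 0.84, FDR = 0.501). Moderate against Mild IOP gave 0.01 (−0.49 to 0.50, FDR = 0.990), and its sign changed with the scaling.

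The calcium-binding proteins Cabp5 and Secretagogin (Scgn) mark overlapping sets of bipolar cells. Cabp5 (chr7:13398155-13408878, + strand, 6 exons) is found in rod bipolar cells and in some cone bipolar types. It was at 7.95, 9.61 and 11.0 FPKM in Control, at 13.0, 12.7 and 12.7 in Mild and at 7.48, 15.0 and 12.2 in Moderate IOP. The Mild libraries lay close together and above all Control libraries, whereas the Moderate libraries held both the lowest and the highest value of the series. The log2 fold-change of 0.40 in Mild IOP against Control (−0.11 to 0.92) did not pass the test (limma FDR = 0.629). In Moderate IOP it was 0.22 against Control (−0.30 to 0.73, FDR = 0.703) and −0.18 against Mild IOP (−0.70 to 0.33, FDR = 0.703).

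Scgn (chr13:23953457-23991214, − strand, 11 exons) is found in cone bipolar cells. Its level was 9.28, 6.09 and 6.61 FPKM in Control, 10.1, 10.8 and 8.05 in Mild and 9.49, 13.7 and 16.6 in Moderate IOP. The Moderate values were all above the Control values, although the lowest of them exceeded the highest Control value by little. The group means were 7.33 ± 1.71, 9.65 ± 1.44 and 13.3 ± 3.60 FPKM. In Moderate IOP against Control the log2 fold-change was 0.76 (0.24 to 1.29), and this difference did not pass after adjustment over all genes (limma FDR = 0.172). It was 0.37 (−0.16 to 0.89, FDR = 0.664) in Mild IOP against Control and 0.40 (−0.13 to 0.92, FDR = 0.369) between the IOP groups.

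The homeodomain transcription factors Otx2 and Vsx1 were both below the mean level of Prkca. Otx2 (chr14:48657677-48667644, − strand, 6 exons) is needed for bipolar cell and photoreceptor development and remains expressed in both. It measured 2.19, 1.63 and 3.82 FPKM in Control, 4.73, 2.67 and 4.19 in Mild and 2.67, 4.90 and 3.46 in Moderate IOP. The groups overlapped, with the lowest value in Control and the highest in Moderate IOP. Against Control, Mild IOP gave a log2 fold-change of 0.48 (−0.20 to 1.15, limma FDR = 0.658) and Moderate IOP one of 0.42 (−0.25 to 1.09, FDR = 0.550), and the IOP groups differed by −0.06 (−0.73 to 0.61, FDR = 0.942). Beside it, 15 rod genes summed to 829 to 919 FPKM in Control, 544 to 629 in Mild and 603 to 646 in Moderate IOP. Of these, 2 were called lower in Mild IOP and 3 in Moderate IOP against Control, where 0.391% and 0.889% of all tested genes were. The log2 fold-change of Otx2 was above 0 and that of all 15 rod genes below 0 in both comparisons with Control, and the part of rods in the Otx2 level was not tested.

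Vsx1 (chr2:150680702-150689137, − strand, 5 exons), a regulator of cone bipolar types, was listed at 0 in each of the 9 libraries and was not tested. For a transcript of 3791 nt, 3 fragments correspond to between 0.0888 and 0.157 FPKM at the derived depths, and a level up to that limit is not excluded by a count of 0, as far as counting error goes. In the whole series 7018 symbols (29.2%) were listed at 0 in every library. A listed 0 says that no level was estimated at this depth and not that the gene was silent.

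Pcp2 (chr8:3623371-3625545, − strand), Purkinje cell protein 2, is a modulator of Gi/o proteins that rod bipolar cells express strongly. It was at 53.7, 35.0 and 52.5 FPKM in Control, at 38.0, 21.7 and 38.5 in Mild and at 64.0, 60.9 and 72.9 in Moderate IOP. All Moderate values were above all others, and Control and Mild overlapped. Group means were 47.1 ± 10.5, 32.7 ± 9.54 and 65.9 ± 6.24 FPKM. The log2 fold-change of Moderate against Mild IOP was 1.03 (0.52 to 1.54), a fold-change of 2.04 (1.44 to 2.90), and it passed the test (limma FDR = 0.0283). Neither comparison with Control passed. The log2 fold-change of Mild IOP was −0.53 (−1.04 to −0.02, limma FDR = 0.463), and that of Moderate IOP was 0.50 (−0.01 to 1.01, FDR = 0.333). Between 35.4 and 136 fragments lay behind each value.

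Pcp2 shares exon sequence with Pet100, a gene on the opposite strand that encodes an assembly factor of cytochrome c oxidase. In GENCODE M21 an exon of a Pcp2 transcript of 495 nt spans chr8:3623377-3623558 and lies within an exon of a Pet100 transcript of 1193 nt at chr8:3623224-3624235. The 182 nt shared by this pair are 36.8% of that Pcp2 transcript and 15.3% of that Pet100 transcript, and over all annotated transcripts the genes share 941 nt of exon. Because the libraries do not mark strand, the origin of reads in this stretch cannot be told apart, and the Pcp2 and Pet100 values are uncertain. Pet100 was at 19.0, 17.9 and 21.6 FPKM in Control, 17.4, 8.48 and 13.9 in Mild and 18.8, 24.5 and 24.6 in Moderate IOP. It was lowest in the same library as Pcp2, replicate 2 of Mild IOP. Pet100 also passed the test in Moderate against Mild IOP, with a log2 fold-change of 0.77 (limma FDR = 0.0806). The ratio of Pcp2 to Pet100 was 2.82, 1.95 and 2.43 in Control, 2.18, 2.56 and 2.78 in Mild and 3.40, 2.49 and 2.97 in Moderate IOP, and the groups overlapped.

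Short transcripts as a class also differed between the IOP groups. Pcp2 has the shortest transcripts of the members, with a median of 514 nt, followed by Scgn with 941 nt. Among 1231 tested genes with a median transcript below 1000 nt, 33.5% were called higher and 0.65% lower in Moderate against Mild IOP, with a median log2 fold-change of 0.57. Of 2985 genes with transcripts of 4000 nt or more, 1.27% were called higher and 4.89% lower (median −0.16). Grm6 (4311 nt), with a value below 0 in this comparison, and Prkca (5337 nt), with a value near 0, belong to that class. Against Control, the short class had a median of −0.37 for Mild IOP and 0.20 for Moderate IOP. Pcp2 had −0.53 and 0.50 there, and Scgn had 0.37 and 0.76. The sign of Scgn was thus opposite to that of the short class in Mild IOP. The part of transcript length in the Pcp2 difference was not tested.

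**Figure D3:**
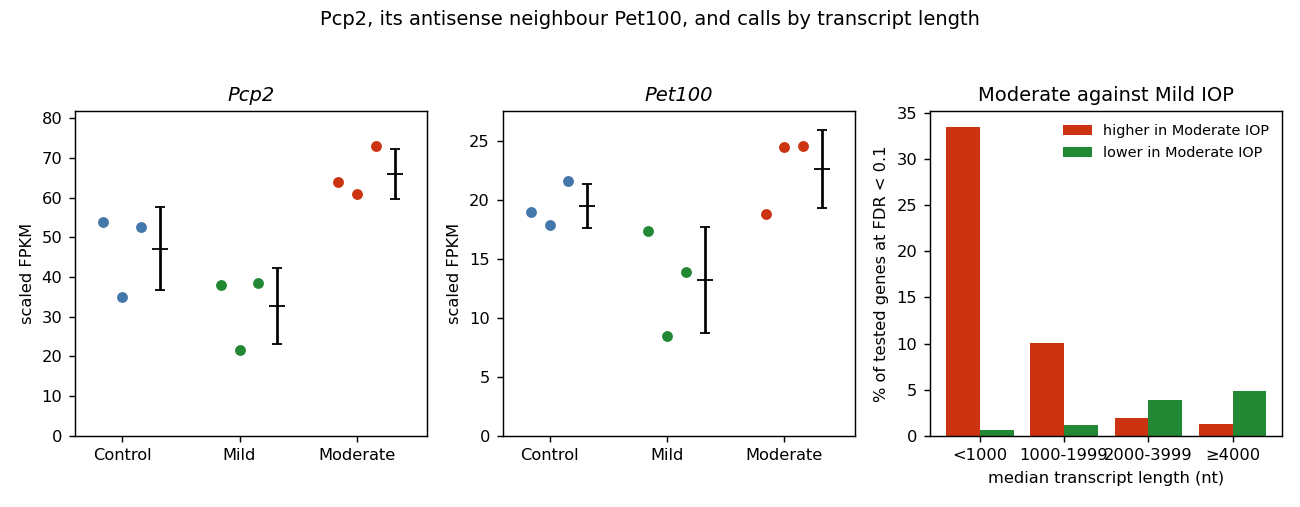
Left and middle: scaled FPKM (y axis) of Pcp2 and of its antisense neighbour Pet100 in each library, with mean and SD of 3 technical replicates. Right: percentage of tested genes called higher or lower in Moderate against Mild IOP (y axis) by median transcript length in nt (x axis). Both genes are lowest in Mild IOP, and the share called higher falls from 33.5% below 1000 nt to 1.27% at 4000 nt or more.

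The members did not vary as one unit across libraries. Over the 21 pairs of tested members, Pearson's r of log2 levels in the 9 libraries ran from −0.67 (Trpm1 and Pcp2) to 0.72 (Cabp5 and Otx2), with a median of −0.04 and 10 pairs above 0. All pairs share libraries, depth and pools, so these values are descriptive. The mean log2 level of the 7 tested members was most like that of Scgn (r = 0.86), Otx2 (0.77) and Cabp5 (0.71) and least like that of Trpm1 (−0.18). Each member is part of this mean, which raises its own r. Among all other tested genes the pattern closest to this mean was that of Zfp101 (r = 0.93 over 9 libraries), followed by Ppp2r2a (0.92), Myadm (0.92), Ppp2r1b (0.92) and Idh1 (0.92).

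Other genes of the bipolar cell and its synapse gave few calls. Of 10 genes of the mGluR6 cascade (the G protein, its regulators and the scaffolds around the receptor), 8 were tested and 0 passed in any comparison. Nor did any reach an unadjusted p below 0.05. Of all tested genes 0.399%, 1.84% and 10.2% passed in Mild against Control, Moderate against Control and Moderate against Mild IOP, and 10.2%, 15.3% and 21.8% had such a p. With so few genes, 0 calls beside these shares is not a result about the cascade as a group. The median of the 8 was 0.00 for Mild IOP, 0.06 for Moderate IOP (both against Control) and −0.12 between the IOP groups, on the log2 scale. The most abundant were Gnb5, the G protein beta subunit that partners RGS proteins (131 ± 12.6 FPKM in Control, 121 ± 7.57 in Mild and 131 ± 3.46 in Moderate IOP), Gnao1, the Go alpha subunit that couples to mGluR6 (93.9 ± 4.46, 91.5 ± 4.37 and 85.5 ± 9.25), and Gng13, a gamma subunit (83.1 ± 42.6, 71.5 ± 36.1 and 115 ± 22.0). These 3 are expressed by other neurons too and stood far above Grm6, whereas Gpr179 and Lrit3, which hold the complex at the dendrite, were too low to be tested. Of 20 further bipolar cell genes 17 were tested and 0 passed in any comparison, beside the same shares of all tested genes. Unadjusted p-values below 0.05 numbered 0, 1 and 4 of 17 in Mild against Control, Moderate against Control and Moderate against Mild IOP, beside 10.2%, 15.3% and 21.8% of all tested genes, and the median log2 fold-changes were 0.11, 0.11 and 0.02. The 3 most abundant of them were the transcription regulators Prdm8 (47.6 ± 5.38 FPKM in Control, 44.7 ± 3.55 in Mild and 38.2 ± 7.03 in Moderate IOP) and Bhlhe22 (21.8 ± 2.50, 21.2 ± 4.68 and 23.6 ± 1.20), and Trnp1 (32.3 ± 1.43, 31.6 ± 7.89 and 44.4 ± 3.03). Levels of these 3 in pooled RNA cannot be assigned to bipolar cells alone.

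Ribbon synapse genes serve the terminals of bipolar cells and photoreceptors alike. In pooled RNA the levels of the listed genes cannot be assigned to these cells or to other neurons. All 12 were tested, and 1 passed in 1 comparison. Cacna2d4, a calcium channel subunit, fell in Moderate against Mild IOP by 0.97 on the log2 scale (limma FDR = 0.0494), from 4.17 ± 0.509 to 1.69 ± 0.698 FPKM, where 3.12% of all tested genes were called lower. Control held 3.22 ± 0.369 FPKM. For the 12 genes the median on the log2 scale was −0.05 for Mild IOP, −0.30 for Moderate IOP (both against Control) and −0.22 between the IOP groups, with unadjusted p-values below 0.05 for 0, 4 and 4 of 12, beside the same 10.2%, 15.3% and 21.8%. The most abundant were Cplx3, a complexin (748 ± 43.2 FPKM in Control, 729 ± 54.6 in Mild and 724 ± 42.0 in Moderate IOP), Ctbp2, whose product Ribeye builds the ribbon (39.6 ± 3.71, 33.9 ± 1.81 and 28.7 ± 2.54), and Stx3, the syntaxin of ribbon terminals (29.0 ± 2.07, 35.7 ± 2.82 and 26.3 ± 3.46).

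Summed over the 8 members, bipolar transcripts amounted to 61.1 to 81.6 FPKM in Control, 59.9 to 75.7 in Mild and 92.4 to 113 in Moderate IOP, and Moderate did not overlap the others. Pcp2 carried this separation. Without it, a choice made after its values were seen, the sum was 26.1 to 28.7 FPKM in Control, 33.7 to 38.2 in Mild and 28.4 to 42.3 in Moderate IOP, so that Moderate overlapped both other groups and Mild lay above Control. In pooled bulk RNA, fewer cells of a type and less RNA per cell cannot be told apart. Beside these, 14 RGC genes summed to 1915 to 2021 FPKM in Control, 1368 to 1754 in Mild and 3237 to 3484 in Moderate IOP, most of it from Sncg, Cartpt and Nefl. Of the 14, 5 were called higher in Moderate IOP against Control (0.951% of all tested genes) and 9 against Mild IOP (7.03%). The log2 fold-change was above 0 for 11 of 14 against Control and 13 of 14 against Mild IOP (50.5% and 48.4% of all tested genes). Pou4f2, Pou4f3 and Ebf1 were below 0 against Control (−0.10, −0.15 and −0.01). Of 9 tested Müller glia genes 3 were called higher in Moderate IOP against Control and 3 against Mild IOP, where 0.951% and 7.03% of all tested genes were called higher, and the 10 listed summed to 850 to 895, 866 to 919 and 968 to 1021 FPKM. Of 11 tested amacrine genes 2 (Gad2 and Slc6a9) were called lower in Moderate IOP against Control and 3 (with Gad1) against Mild IOP. Of all tested genes 0.889% and 3.12% were called lower. The log2 fold-change was above 0 for 6 of the 11 amacrine genes against Control and for 5 against Mild IOP. Their medians were 0.02 and −0.03, so the list did not fall as a whole. The 13 listed amacrine genes summed to 1222 to 1323, 1279 to 1385 and 987 to 1050 FPKM. Lens genes separated Control from the rest, with 7 genes at 217 to 282 FPKM in Control and at most 2.57 FPKM in any library of the IOP groups. The part of these cell types in the bipolar values was not tested.

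**Figure D4:**
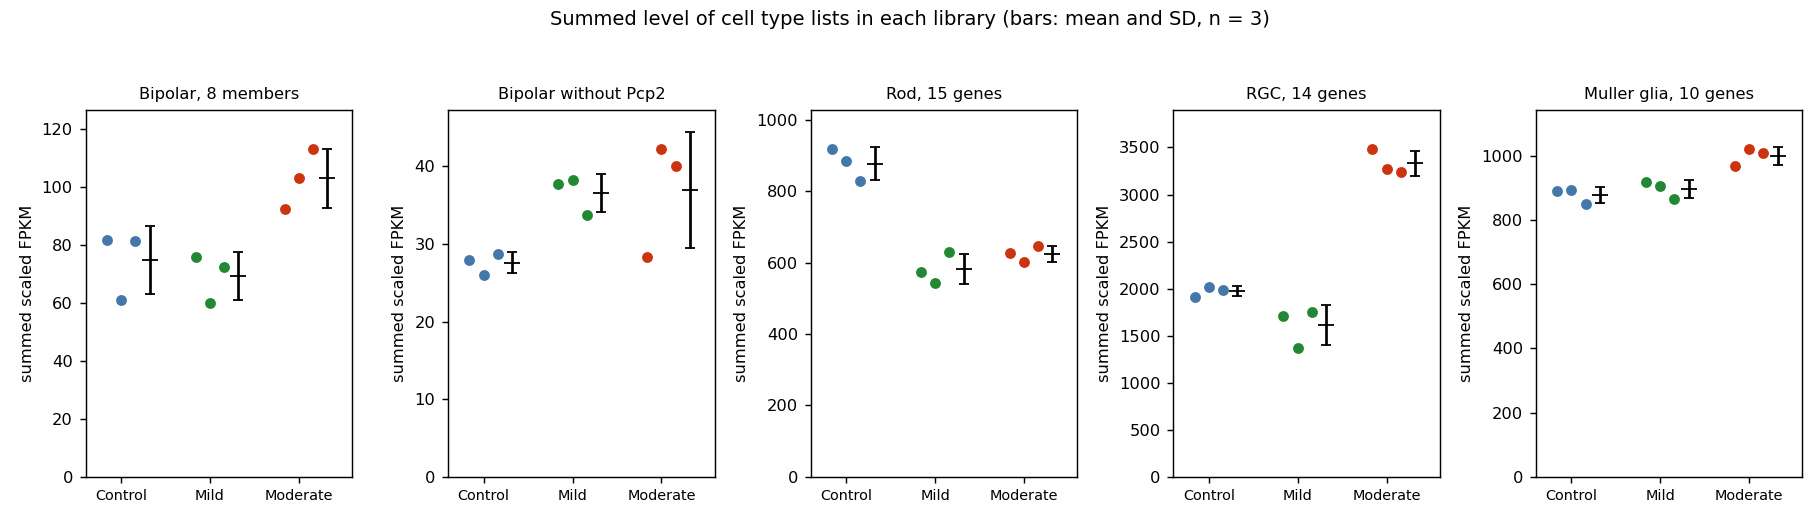
Summed scaled FPKM (y axis, linear from 0, a separate scale in each panel) of the 8 bipolar members, the same without Pcp2, and the rod, RGC and Müller glia lists in each library, with mean and SD of 3 technical replicates. The member sum is highest in Moderate IOP (92.4 to 113 FPKM), as is the RGC sum, while the rod sum is highest in Control.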

How the data were processed

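RNA-seq was made from 9 RGC libraries with the SMART-seq v4 and Nextera XT kits, which do not mark strand. The authors aligned reads to mm10 with bowtie2 and estimated FPKM per gene with cufflinks, and the submitters' processing notes also name FastQC, Trimmomatic, TopHat2 and Cuffdiff. The deposited values are FPKM for each locus and library with a confidence interval, and how the authors' counting treats overlapping genes is not given in the sources used here. The labels give a planned depth but no totals, so fragments were derived as the square of 2 × FPKM / (upper bound − FPKM).

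FPKM were summed per symbol, scaled by median-of-ratios factors and tested as log2(scaled FPKM + 1) with limma 3.58.1 in R 4.3.3 (trend, empirical Bayes, all 9 libraries). Fold-changes are on this scale, which understates those of low genes. Genes needed a mean of at least 0.5 FPKM and no failed estimate (2 failed). P-values are two-sided and were adjusted by the Benjamini-Hochberg method over 13043 genes, and called means an FDR below 0.1. Tables were made in Python 3.11.15. GENCODE M21 gave transcript lengths for 95.3% of tested genes. Members and lists were chosen with earlier results of these data known. From 3 lists (the mGluR6 cascade, further bipolar genes and ribbon synapse genes), called genes and the 3 most abundant are named. Alternatives changed the scaling, the pseudocount, the filter, the groups fitted and the replicate block, and left out each library in turn. Labels give an age of 8 weeks, and the design text gives 6 weeks, which the authors state as the age at injection. The labels name no sequencing batch.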

Additional observations from a re-analysis of the deposited data

Results flagged for a closer look

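The difference in Pcp2 between the IOP groups was marked because the difference itself passed the test (log2 fold-change 1.03, limma FDR = 0.0283), while the values against the shared Control libraries had opposite signs. These were −0.53 on the log2 scale for Mild IOP (limma FDR = 0.463) and 0.50 for Moderate IOP (limma FDR = 0.333), and neither passed. Without Mild replicate 2 the former was −0.27. All 3 Moderate values lay above all 3 Mild values. No group held enough libraries for a check of single outlying values.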

How the results depend on the processing

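The number of members called was 0, 0 and 1 in Mild against Control, Moderate against Control and Moderate against Mild IOP under every alternative run, and Pcp2 was called in Moderate against Mild IOP in 18 of 18 of them (log2 fold-change 0.77 to 1.17, limma FDR = 0.0174 to 0.0831). The 18 include the unplanned run that summed Pcp2 with Pet100, which is not a test of Pcp2 alone. The counts over all genes were less stable. Against 52 genes called in Mild against Control, 24 were called without a filter and 11 with only the 2 groups compared. Leaving out 1 library gave 15 to 175, with 175 without Mild replicate 3, 15 without Mild replicate 2, 18 without Mild replicate 1, 18, 23 and 20 without Control replicates 1, 2 and 3, and 20 without Moderate replicate 2. In Moderate against Control 240 became 134 with only the 2 groups compared and 61 to 285 without 1 library (61 and 89 without Control replicates 1 and 2, 141 without Mild replicate 1, 146 and 110 without Moderate replicates 1 and 2). In Moderate against Mild IOP 1324 became 518 to 1398 (742 and 518 without Mild replicates 1 and 2, 780 without Moderate replicate 2).

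Signs changed only in values that had not passed the test. Prkca in Moderate against Mild IOP was −0.066 without scaling, −0.051 with upper-quartile scaling and −0.095 to 0.17 without 1 library. Without 1 library Otx2 ranged from −0.25 to 0.10 and Cabp5 from −0.38 to 0.077 in that comparison, and Trpm1 from −0.034 to 0.31 in Mild IOP against Control. The causes were not tested. A filter of 2 FPKM left Grm6 and Trpm1 out. Summing Pcp2 with Pet100, an alternative chosen after seeing the data, gave 0.98 in Moderate against Mild IOP (limma FDR = 0.0288).

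Replicate numbers are shared between groups, but over all tested genes same-numbered libraries did not deviate together (correlations of −0.01 to 0.04). These correlations cannot show whether single genes are paired. Pcp2 was lowest in replicate 2 of every group, and with a replicate block its limma FDR in Moderate against Mild IOP was 0.0174. With a replicate block 25, 135 and 1120 genes and 0, 0 and 1 members were called in the 3 comparisons. Depth limits Grm6, Trpm1, Otx2 and Pcp2, which rest on 136 or fewer fragments in each library, and the design limits all values to 3 pools.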

Other observations

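The 7 cone genes summed to 12.01 to 16.6 FPKM in Control, 11.8 to 24.4 in Mild and 5.90 to 24.4 in Moderate IOP. Of 6 tested cone genes 0 were called in any of the 3 comparisons by limma at an FDR below 0.1. Nor did any have an unadjusted p below 0.05. Of all tested genes 0.399%, 1.84% and 10.2% were called in Mild against Control, Moderate against Control and Moderate against Mild IOP, and 10.2%, 15.3% and 21.8% had such a p. Horizontal cell genes summed to 15.8 to 22.8, 20.7 to 27.2 and 24.0 to 35.2 FPKM, with the transcription factor Lhx1 listed at 0 in all libraries. Calb1 made up nearly all of this sum, with means of 18.9, 22.7 and 28.7 FPKM, and was not called. Onecut1 and Onecut2 averaged 0.965 and 0.148 FPKM over the 9 libraries, so the sum does not describe the list as a set. The 8 microglia genes summed to 29.5 to 39.1, 25.9 to 40.3 and 41.9 to 49.6 FPKM, most of it from C1qa, C1qb and C1qc. Of 7 tested, 1 (C1qc, a complement subunit) was called higher in Moderate against Mild IOP, beside 7.03% of all tested genes. The log2 fold-change of Moderate IOP was above 0 for 5 of 7 against Control and 4 of 7 against Mild IOP (50.5% and 48.4% of all tested genes). Csf1r was among those below 0 in both, with means of 3.03, 2.93 and 1.65 FPKM, so the list did not rise as a whole. Endothelial genes did not exceed 3.18 FPKM in sum, and Cldn5 and Cdh5, which encode junction proteins of vessels, were listed at 0 throughout.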
